A study of Mus musculus with 18 samples.

Results

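The transcripts of 6 fibroblast growth factor (FGF) ligands, Fgf3, Fgf4, Fgf8, Fgf15, Fgf17 and Fgf18, and of the 4 FGF receptor genes, Fgfr1, Fgfr2, Fgfr3 and Fgfr4, were followed over all 18 RNA-seq libraries of mouse gastruloids. They were taken by gene name from the deposited count table and make up 10 of its 55385 genes. Gastruloids are aggregates of embryonic stem cells that break symmetry and form germ layer derivatives and a body axis in culture. All libraries were made from polyA RNA of wild-type gastruloids of the strain 129/SVEV, pooled per condition before extraction. The study moved the time window in which CHIR was given, a small molecule that blocks the kinase GSK3 and so switches on the Wnt/β-catenin pathway. Early gastruloids received CHIR from 24 to 48 h after aggregation and were collected at 48 h (end of the pulse), 72 h and 96 h. CTL gastruloids received CHIR from 48 to 72 h, so that those of 48 h were untreated, those of 72 h were at the end of the pulse and those of 96 h were one day past it. Each of the 6 groups had 3 libraries. Whether a group's libraries stem from separate cultures is not stated in the labels. The p-values therefore reflect the spread among these samples alone, and that spread may be technical.

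FGF ligands are secreted proteins that bind receptor tyrosine kinases together with heparan sulphate chains, and the bound receptors signal through RAS, MEK and ERK. In the mouse embryo, FGF4 made by pluripotent cells drives their exit from the naive state. FGF8 made in the primitive streak and tailbud is needed for cells to leave the streak and helps to keep presomitic mesoderm undifferentiated. FGF15, the mouse counterpart of human FGF19, belongs to the subfamily whose adult members act as hormones.

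Levels are given in CPM (counts scaled by the TMM-adjusted library size), in the order of replicates 1, 2 and 3. Changes are log2 fold changes ± SE from edgeR's quasi-likelihood test over all 18 libraries, with Benjamini-Hochberg adjustment over the 16041 tested genes. Calls are made where the adjusted p is under 0.05. Total counts ran from 14841728 to 24536538 per library. All 10 genes passed the filter on low counts, Fgf18 with 5 to 15 counts per library, Fgf3 with 6 to 1333 and Fgfr1, at the upper end, with 1930 to 10145. Replicate 3 of the CTL libraries of 96 h stood apart from the other CTL libraries of that age: the summed level of 6 presomitic and somitic markers was 572, 608 and 284 CPM in replicates 1, 2 and 3. Without it, 36 of the 40 values of the FGF genes in the 4 comparisons that use CTL 96 h kept their direction and call, and the other 4 are given with and without it. In bulk RNA, fewer cells of a type and less RNA per cell cannot be told apart.

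As a check of the labelled tissue, 5 pluripotency markers summed to between 1831 and 2895 CPM in every group but CTL 96 h, where they summed to between 361 and 636 CPM. The 6 streak and tailbud markers summed to 116 to 139 CPM in Early 48 h, 121 to 127 in Early 72 h and 791 to 1021 in Early 96 h. Their sums were 8.40 to 9.30 CPM in CTL 48 h, 1434 to 1878 in CTL 72 h and 1855 to 2010 in CTL 96 h. Among markers of other cells, 7 fibroblast and feeder genes summed to at most 39.3 CPM with Lum at 0 in all groups, 7 trophoblast genes to at most 17.9 CPM with Tpbpa at 0 in all groups, and 8 extraembryonic endoderm genes to at most 46.8 CPM, reached in Early 96 h. The part of these cells in the FGF levels was not tested.

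Among the 6 groups, the ligand Fgf4 was highest in untreated gastruloids of 48 h and lowest at the end of the later pulse. In the Early arm Fgf4 stood at 91.4, 88.5 and 87.8 CPM at 48 h, 109, 106 and 106 CPM at 72 h and 34.2, 35.2 and 42.7 CPM at 96 h. The CTL libraries had 195, 200.3 and 178 CPM at 48 h, 6.50, 6.57 and 8.25 CPM at 72 h and 78.2, 82.5 and 60.3 CPM at 96 h. No pair of groups that neighbour each other in the order of Fgf4 levels overlapped, and the order ran from CTL 48 h through Early 72 h, Early 48 h, CTL 96 h and Early 96 h down to CTL 72 h. At the end of the later pulse Fgf4 was 27.1-fold lower in CTL 72 h than in CTL 48 h (log2 fold change -4.76 ± 0.12, adjusted p = 1.06e-15). At the end of the earlier pulse it was 2.14-fold lower in Early 48 h than in CTL 48 h (-1.10 ± 0.09, adjusted p = 2.29e-08). Set against each other, the ends of the pulses differed 12.6-fold, Early 48 h being higher than CTL 72 h (3.66 ± 0.12, adjusted p = 6.53e-14). Over the following day Fgf4 was 10.5-fold higher in CTL 96 h than in CTL 72 h (3.39 ± 0.12, adjusted p = 2.19e-13) and 1.20-fold higher in Early 72 h than in Early 48 h (0.26 ± 0.09, adjusted p = 0.0297). The last of these was not called without any 1 of the 6 Early libraries it compares (adjusted p of 0.0561 to 0.0799). It was called without the CTL libraries numbered 3 (0.28, adjusted p = 8.64e-05). The difference between these 2 steps, early minus control, was -3.12 ± 0.15 (adjusted p = 4.75e-11). Fgf4 then fell over the Early arm's last day (-1.52 ± 0.10 for Early 96 h against Early 72 h, adjusted p = 6.05e-09).

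Fgf15 shared with Fgf4 its low level in CTL 72 h and its return a day later. It stood at 30.8, 25.5 and 30.9 CPM in Early 48 h, 44.6, 45.5 and 45.4 CPM in Early 72 h and 28.5, 28.8 and 31.7 CPM in Early 96 h. The CTL values were 49.2, 48.6 and 49.2 CPM at 48 h, 8.42, 7.66 and 4.35 CPM at 72 h and 53.4, 53.1 and 36.9 CPM at 96 h. CTL 96 h overlapped both CTL 48 h and Early 72 h, which did not overlap each other. Early 96 h and Early 48 h overlapped, and CTL 72 h lay below all others. Fgf15 was 7.09-fold lower in CTL 72 h than in CTL 48 h (-2.83 ± 0.16, adjusted p = 5.32e-11) and 1.68-fold lower in Early 48 h than in CTL 48 h (-0.75 ± 0.14, adjusted p = 2.31e-04). It was 6.93-fold higher in CTL 96 h than in CTL 72 h (2.79 ± 0.16, adjusted p = 1.23e-10) and 1.55-fold higher in Early 72 h than in Early 48 h (0.63 ± 0.14, adjusted p = 0.00131), steps that differed by -2.16 ± 0.21, early minus control (adjusted p = 2.59e-07). One day past each pulse, Early 72 h and CTL 96 h overlapped (-0.09 ± 0.13, adjusted p = 0.576), and without CTL replicate 3 of 96 h the difference of -0.23 was called (adjusted p = 0.0466). Exons of Fgf15 overlap the antisense genes Gm26793, with 3 to 45 counts per library, and Gm39119, with 0 to 2. The libraries were stranded, but the strand setting of the counting is not given in the sources used here. Whether reads of these genes entered the counts of Fgf15, 67 to 1313 per library, therefore cannot be told.

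Fgf8, the streak and tailbud ligand, ran the opposite way through the pulses. Early libraries had 10.6, 10.1 and 15.5 CPM at 48 h, 11.3, 10.4 and 11.5 CPM at 72 h and 64.9, 63.9 and 53.9 CPM at 96 h. The CTL libraries had 2.19, 1.98 and 3.46 CPM at 48 h, 43.2, 51.1 and 48.1 CPM at 72 h and 63.1, 50.8 and 102 CPM at 96 h. Untreated gastruloids were thus lowest, and at 96 h the arms overlapped, with CTL replicate 3 above every other library. Fgf8 was 19.1-fold higher in CTL 72 h than in CTL 48 h (4.25 ± 0.26, adjusted p = 1.53e-10) and 4.84-fold higher in Early 48 h than in CTL 48 h (2.28 ± 0.29, adjusted p = 5.13e-06). Between the ends of the pulses, Early 48 h was 3.93-fold lower than CTL 72 h (-1.98 ± 0.21, adjusted p = 2.30e-07). In the day after the earlier pulse it did not change detectably (-0.13 ± 0.23 for Early 72 h against Early 48 h, adjusted p = 0.684). On the second day it rose, being 5.53-fold higher in Early 96 h than in Early 72 h (2.47 ± 0.21, adjusted p = 1.67e-07). The step from the end of the later pulse to the next day was small (0.59 ± 0.19 for CTL 96 h against CTL 72 h, adjusted p = 0.0112) and was not called without CTL replicate 3 of 96 h (0.27, adjusted p = 0.0644) or in a fit of these 2 groups alone (0.59, adjusted p = 0.0728). At 96 h the arms did not differ detectably in Fgf8 (-0.23 ± 0.18, adjusted p = 0.285), the difference being 0.10 without CTL replicate 3 of 96 h and -0.42 (adjusted p = 0.0416) without replicate 2.

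Fgf17, a close relative of Fgf8 with overlapping expression at the posterior end and the midbrain-hindbrain border of the embryo, had the order of groups of Fgf8, apart from Early 48 h and Early 72 h, which overlapped for both genes. It stood at 4.01, 2.89 and 4.23 CPM in Early 48 h, 4.02, 3.26 and 3.87 CPM in Early 72 h and 9.56, 9.76 and 8.84 CPM in Early 96 h. The CTL libraries had 1.78, 1.48 and 2.50 CPM at 48 h, 7.89, 7.51 and 5.26 CPM at 72 h and 16.6, 17.6 and 32.6 CPM at 96 h. Every CTL library of 96 h lay above every Early library of that age (-1.23 ± 0.21, adjusted p = 7.53e-05, and -0.85, adjusted p = 2.16e-05, without CTL replicate 3 of 96 h). Fgf17 was 3.66-fold higher in CTL 72 h than in CTL 48 h (1.87 ± 0.28, adjusted p = 1.30e-05) and 1.97-fold higher in Early 48 h than in CTL 48 h (0.98 ± 0.30, adjusted p = 0.0130). The last value was not called without CTL replicate 2 of 48 h (0.82, adjusted p = 0.0660). One day on, Fgf17 had risen again in CTL 96 h over CTL 72 h (1.67 ± 0.22, adjusted p = 4.30e-06, and 1.30 without CTL replicate 3 of 96 h) and stood at -0.01 ± 0.27 in Early 72 h against Early 48 h (adjusted p = 0.977), a difference between the steps of -1.69 ± 0.35 (adjusted p = 7.31e-04). It rose in the Early arm a day later (1.34 ± 0.24 for Early 96 h against Early 72 h, adjusted p = 3.61e-04).

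Fgf3, a ligand of the streak, tailbud and hindbrain that acts with Fgf8 in mesoderm and inner ear formation, was high in 1 group. The 3 CTL libraries of 96 h had 54.2, 56.0 and 40.7 CPM, and no other library exceeded 2.13 CPM. The sum of the 6 presomitic and somitic markers, none of them at 0 in any group, moved with it. This sum was 2.93 to 8.35 CPM over the Early groups and the CTL groups before 96 h, and 284 to 608 CPM in CTL 96 h. In CTL 96 h, 1 of the 6 markers averaged under 1 CPM, and in each other group 4 or 5 did. The part of these markers in the Fgf3 level was not tested. Early gastruloids had 0.870, 0.798 and 1.09 CPM at 48 h, 1.64, 1.30 and 1.91 CPM at 72 h and 0.718, 0.474 and 1.16 CPM at 96 h. Those of the CTL arm before 96 h had 1.53, 2.13 and 1.54 CPM at 48 h and 0.320, 0.521 and 0.455 CPM at 72 h. At the same age, Early 96 h was 65.4-fold lower than CTL 96 h (-6.03 ± 0.21, adjusted p = 8.03e-14). At the same interval from the pulse, Early 72 h was 31.6-fold lower than CTL 96 h (-4.98 ± 0.19, adjusted p = 8.58e-14). The step after the later pulse was a 115-fold rise in CTL 96 h over CTL 72 h (6.85 ± 0.23, adjusted p = 1.01e-13), and the corresponding step of the Early arm was 0.79 ± 0.28 (adjusted p = 0.0306). The difference between the steps was -6.06 ± 0.43, early minus control (adjusted p = 4.02e-09). The Early step was not called in 4 of the 6 fits that left out 1 of its libraries. Over the later pulse itself Fgf3 was 4.0-fold lower in CTL 72 h than in CTL 48 h (-2.0 ± 0.33, adjusted p = 3.73e-05). It was 1.89-fold lower in Early 48 h than in CTL 48 h (-0.92 ± 0.28, adjusted p = 0.0121), a call lost without CTL replicate 2 of 48 h (-0.73, adjusted p = 0.0737). In Early 96 h it was lower than in Early 72 h (-1.05 ± 0.29, adjusted p = 0.00874, and -0.76, adjusted p = 0.0638, without Early replicate 2 of 96 h).

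Fgf18, a ligand best known from skeletal growth, had 0.237 to 0.746 CPM over all libraries and was called in none of the 10 comparisons. Its largest difference among the age-matched pairs was at 96 h, with 0.332, 0.237 and 0.404 CPM in Early 96 h and 0.569, 0.543 and 0.437 CPM in CTL 96 h (-0.70 ± 0.36, adjusted p = 0.127). It had 5 to 15 counts per library.

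**Figure D1:**
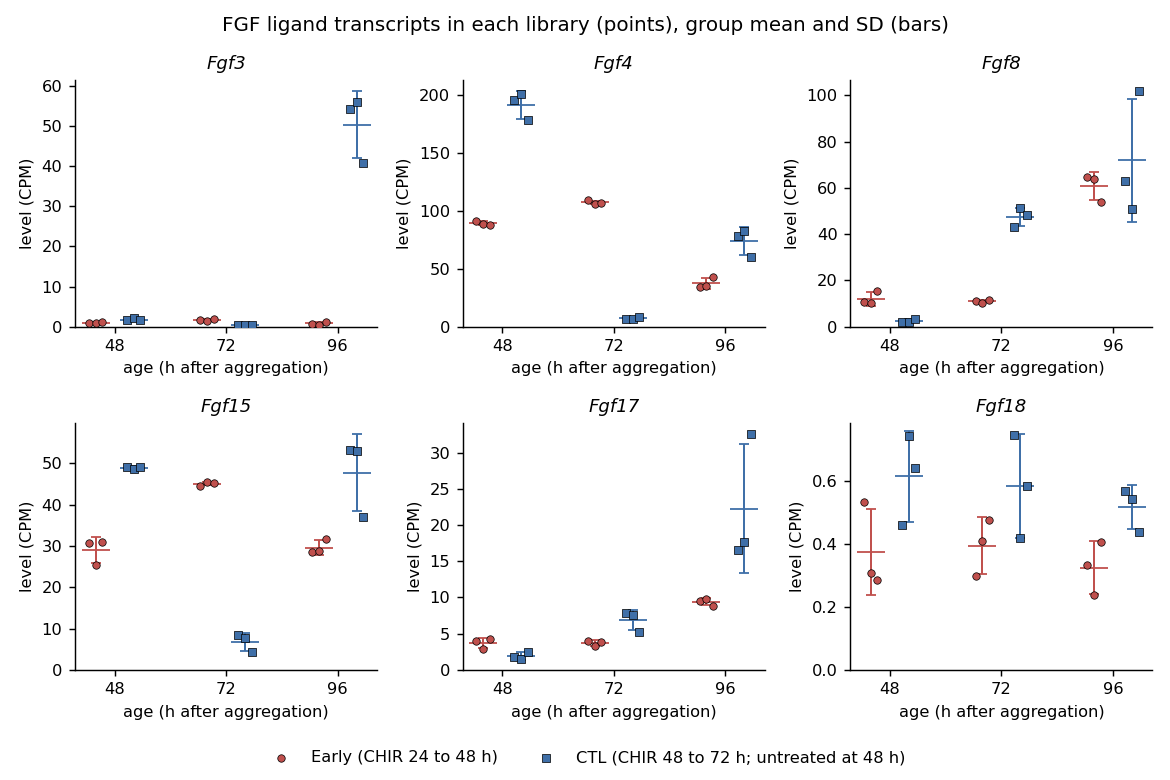
Levels of the 6 ligands (y axis, CPM from 0, a scale of its own in each panel) against age after aggregation (x axis, h), with one point per library and bars for the group mean ± SD (n = 3). Circles are Early gastruloids and squares CTL gastruloids, which were untreated at 48 h. Fgf4 and Fgf15 share a low in CTL 72 h, Fgf8 and Fgf17 are lowest in CTL 48 h, and Fgf3 is high in the 3 CTL libraries of 96 h alone.

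Among the receptors, Fgfr1, the main FGF receptor of the epiblast and mesoderm, was the most abundant per exon length in every library. Early libraries had 135, 129 and 132 CPM at 48 h, 150.2, 148 and 150.3 CPM at 72 h and 201, 190.3 and 195 CPM at 96 h. The CTL libraries had 134, 131 and 124 CPM at 48 h, 239, 241 and 269.5 CPM at 72 h and 412, 413 and 219 CPM at 96 h. At 48 h the arms overlapped, and at 72 and 96 h every CTL library lay above every Early library. Fgfr1 was 1.93-fold higher in CTL 72 h than in CTL 48 h (0.95 ± 0.15, adjusted p = 2.20e-05), whereas Early 48 h stood at 0.02 ± 0.15 against CTL 48 h (adjusted p = 0.922). Between the ends of the pulses, Early 48 h was 1.90-fold lower than CTL 72 h (-0.92 ± 0.15, adjusted p = 3.13e-05). Early libraries were lower than CTL libraries at 72 h (-0.74 ± 0.15, adjusted p = 4.96e-04) and at 96 h (-0.84 ± 0.15, adjusted p = 7.94e-05), the last being -1.07 without CTL replicate 3 of 96 h. The step to CTL 96 h from CTL 72 h was 0.48 ± 0.14 (adjusted p = 0.00899) and hung on single libraries: it was 0.73 without CTL replicate 3 of 96 h (adjusted p = 6.00e-11), 0.34 without replicate 1 (adjusted p = 0.0615) and 0.35 without replicate 2 (adjusted p = 0.0614). In a fit of these 2 groups alone it was not called (0.47, adjusted p = 0.120). The Early step of 96 h over 72 h, 0.39 ± 0.15 (adjusted p = 0.0487), was not called without any 1 of its 6 libraries (adjusted p of 0.0775 to 0.117) or by DESeq2's Wald test (adjusted p = 0.0878). Its 2 groups did not overlap, and without the CTL libraries numbered 3 it was called (0.39, adjusted p = 3.34e-09). Early 72 h against Early 48 h was not called (0.18 ± 0.15, adjusted p = 0.345), but was in a fit of these 2 groups alone (0.20, adjusted p = 2.87e-05).

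Fgfr2, whose splice forms serve epithelia and mesenchyme and which is expressed in pluripotent and extraembryonic cells, fell over the later pulse while Fgfr1 rose. Its levels were 18.4, 16.4 and 14.4 CPM in Early 48 h, 14.2, 12.4 and 12.2 CPM in Early 72 h and 6.35, 6.63 and 7.05 CPM in Early 96 h. In the CTL arm they were 13.8, 13.9 and 11.4 CPM at 48 h, 3.89, 3.80 and 4.94 CPM at 72 h and 6.75, 7.06 and 7.17 CPM at 96 h. CTL 72 h was the lowest group, and the arms overlapped at 96 h (-0.06 ± 0.12, adjusted p = 0.677). Fgfr2 was 3.11-fold lower in CTL 72 h than in CTL 48 h (-1.64 ± 0.13, adjusted p = 3.01e-09). It was slightly higher in Early 48 h than in CTL 48 h (0.34 ± 0.11, adjusted p = 0.0198), a call lost without CTL replicate 3 (0.25, adjusted p = 0.0954) or Early replicate 1 (0.24, adjusted p = 0.127) of 48 h. Between the ends of the pulses it was 3.92-fold higher in Early 48 h than in CTL 72 h (1.97 ± 0.13, adjusted p = 2.73e-10). After the pulse, Early 72 h was lower than Early 48 h (-0.34 ± 0.11, adjusted p = 0.0182) and CTL 96 h higher than CTL 72 h (0.74 ± 0.13, adjusted p = 1.24e-04), steps that differed by -1.08 ± 0.17 (adjusted p = 5.98e-05). The Early step was not called in 3 of the 6 fits without 1 of its libraries, those without Early replicate 1 of 48 h, replicate 2 of 72 h or replicate 3 of 72 h. The larger part of the Early decrease fell on the last day (-0.96 ± 0.12 for Early 96 h against Early 72 h, adjusted p = 8.06e-06). In the deposited FPKM table Fgfr2 is listed at 0 in all 18 libraries although the count table holds 73 to 381 counts per library, and the same held for 210 of the 10050 genes with at least 50 counts in every library (2.09%). None of 8 housekeeping genes was listed at 0. The annotated span of Fgfr2 covers 69 other genes, of which Ctbp2 shares exon sequence.

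Fgfr4, a receptor of high affinity for FGF15/19-type and several other ligands, was the receptor that was higher in Early than in CTL libraries at all 3 ages. It had 5.27, 5.22 and 4.75 CPM in Early 48 h, 3.22, 2.57 and 2.68 CPM in Early 72 h and 1.44, 1.18 and 2.37 CPM in Early 96 h. The CTL libraries had 2.24, 1.68 and 2.82 CPM at 48 h, 1.12, 0.990 and 1.04 CPM at 72 h and 0.610, 0.434 and 0.374 CPM at 96 h. In each arm the level was lower at each later age, and at no age did the arms overlap. Early over CTL was 1.19 ± 0.21 at 48 h (adjusted p = 1.66e-04), 1.42 ± 0.25 at 72 h (adjusted p = 1.48e-04) and 1.74 ± 0.30 at 96 h (adjusted p = 6.99e-05). These values rest on few reads, with 21, 19 and 16 counts in CTL 72 h and 15, 8 and 6 in CTL 96 h. Whether the difference between the arms changed with age was not tested. The fall of Fgfr4 after the pulse did not differ detectably between the arms (0.25 ± 0.38, adjusted p = 0.627), being -0.85 ± 0.20 in Early 72 h against Early 48 h (adjusted p = 0.00275) and -1.10 ± 0.32 in CTL 96 h against CTL 72 h (adjusted p = 0.00803). Its last Early step (-0.78 ± 0.23, adjusted p = 0.0136) was not called in 3 of the 6 fits without 1 of its libraries, which left out Early replicate 1 of 72 h, replicate 1 of 96 h or replicate 2 of 96 h.

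Fgfr3, known for its restraint of bone growth and its expression in neural progenitors, was low. Its levels were 1.5, 1.04 and 1.20 CPM in Early 48 h, 1.24, 1.47 and 1.07 CPM in Early 72 h and 2.38, 1.23 and 1.73 CPM in Early 96 h. In the CTL arm they were 1.07, 0.495 and 0.898 CPM at 48 h, 0.746, 0.782 and 1.43 CPM at 72 h and 3.98, 3.86 and 2.31 CPM at 96 h. CTL 96 h was the highest group and overlapped Early 96 h, through Early replicate 1 and CTL replicate 3. Fgfr3 was 3.53-fold higher in CTL 96 h than in CTL 72 h (1.82 ± 0.31, adjusted p = 6.58e-05), against 0.02 ± 0.33 in Early 72 h over Early 48 h (adjusted p = 0.975), a difference of -1.80 ± 0.45 between the steps (adjusted p = 0.00348). At 96 h it was lower in Early than in CTL libraries (-0.95 ± 0.28, adjusted p = 0.00668), which was not called without Early replicate 2 of 96 h (-0.72, adjusted p = 0.0505).

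**Figure D2:**
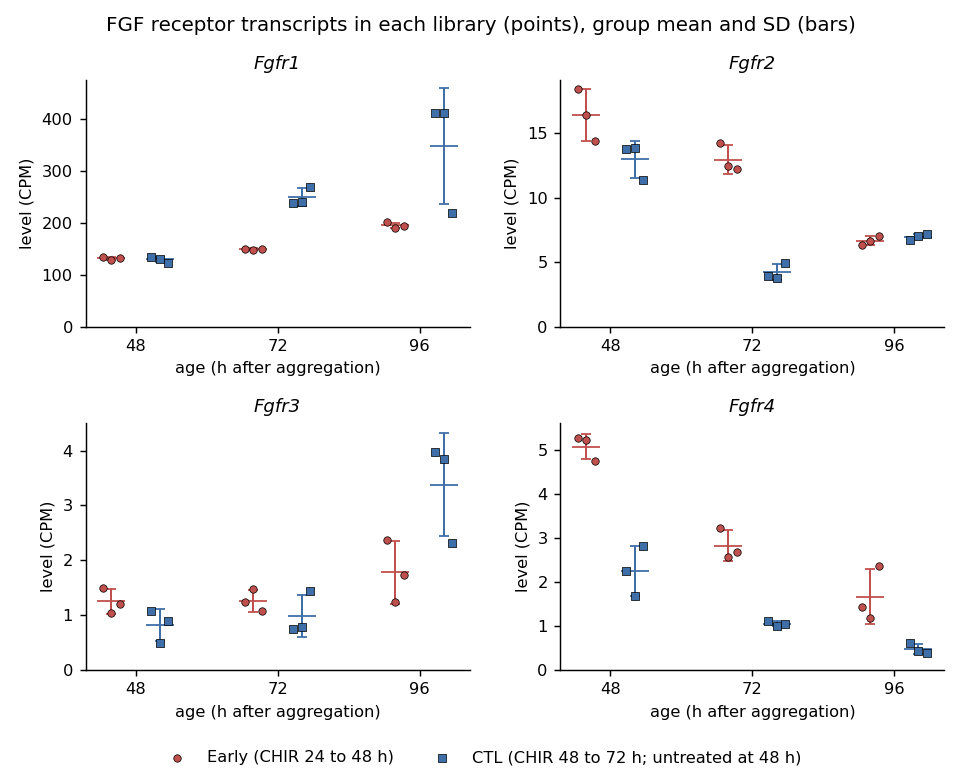
Levels of the 4 receptors (y axis, CPM from 0, a scale of its own in each panel) against age after aggregation (x axis, h), with one point per library and bars for the group mean ± SD (n = 3). Circles are Early gastruloids and squares CTL gastruloids, which were untreated at 48 h. Fgfr1 is at 124 CPM or more in every library, Fgfr4 is higher in Early than in CTL libraries at each age, and CTL replicate 3 of 96 h is the low point of Fgfr1 in its group.

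Per length, as CPM per kilobase of merged exon, the makeup of the transcripts of these 6 ligands went over to mostly Fgf8 in Early 96 h and in CTL 72 h. Fgf5, which is not among them, is described further on. Of the summed per-length level of the 6 ligands, Fgf4 held 56.8% ± 3.97 in Early 48 h, 56.2% ± 0.706 in Early 72 h and 16.2% ± 2.63 in Early 96 h (mean ± SD, n = 3). In the CTL arm it held 74.6% ± 2.03 at 48 h, 5.04% ± 0.827 at 72 h and 18.5% ± 4.76 at 96 h. The share of Fgf8 was 18% ± 3.42, 13.7% ± 0.521 and 62.0% ± 4.10 in Early 48, 72 and 96 h, and 2.37% ± 0.839, 79.2% ± 3.17 and 41.1% ± 10.3 in CTL 48, 72 and 96 h. Its share in CTL 96 h was 38.2%, 32.5% and 52.5% in replicates 1, 2 and 3. Among these 6 ligands, Fgf4 therefore led at 72 h in each Early library and Fgf8 in each CTL library. Fgf5, left out of these shares, averaged 35.0 CPM per kilobase in Early 72 h, beside 33.5 CPM for Fgf4. At 96 h the CTL libraries were mixed, with Fgf3 at 19.0%, 20.8% and 12.2% of the per-length ligand level in replicates 1, 2 and 3, against 0.416%, 0.275% and 0.713% in Early libraries. Fgf15 ranged from 5.03% ± 1.64 in CTL 72 h to 24.7% ± 0.611 in Early 72 h. Among the receptors, Fgfr1 held 80.7% ± 1.27 of the per-length level in Early 48 h, at the low end, and 96.8% ± 0.215 in CTL 72 h, at the high end. At 48 h, Fgfr2 and Fgfr4 were the main minor receptors, at 9.60% ± 0.920 and 8.68% ± 0.407 in Early 48 h, against 8.30% ± 0.669 and 4.21% ± 1.18 in CTL 48 h. In CTL 96 h, Fgfr3 held more than Fgfr4, at 1.31% ± 0.0689 and 0.379% ± 0.0863. These shares count transcripts and not protein.

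**Figure D3:**
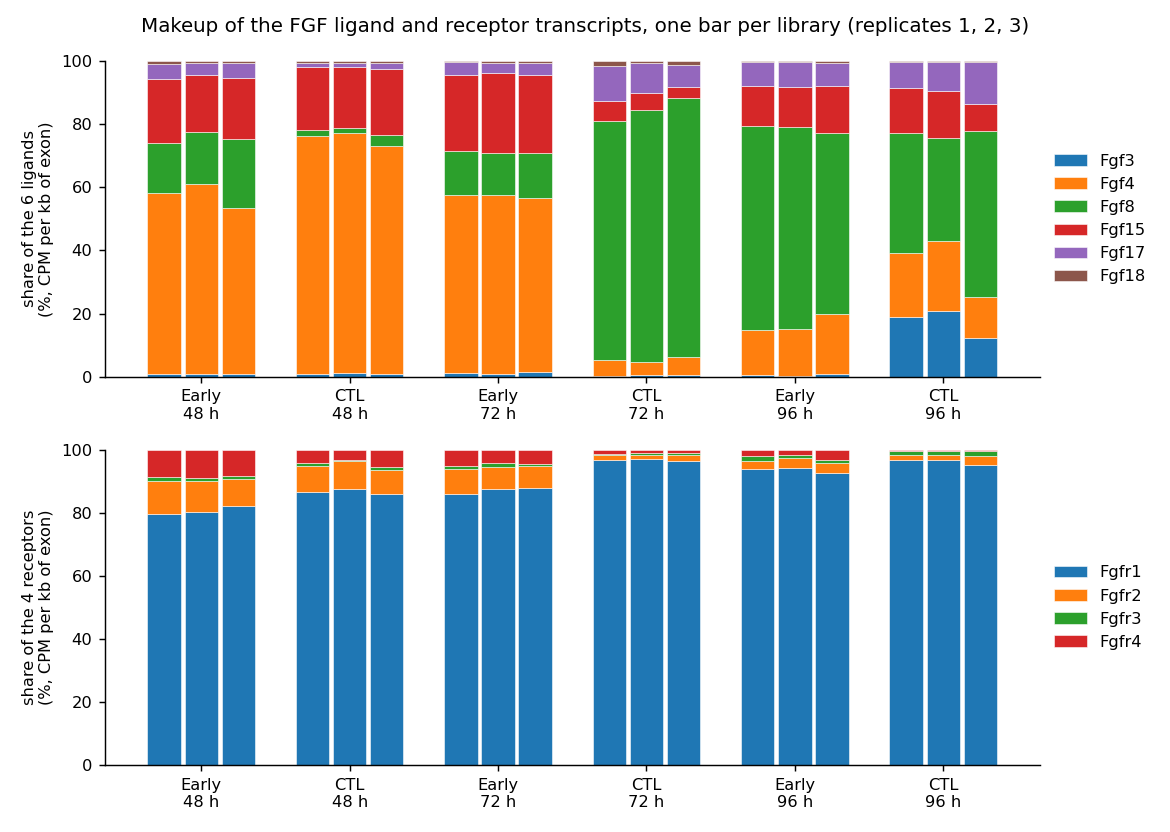
Share of each gene (y axis, % of the summed CPM per kilobase of exon) among the 6 ligands (top) and the 4 receptors (bottom), one bar per library in the order of replicates 1 to 3 within each group (x axis). Fgf4 is the largest part of the ligand bars in both Early groups of 48 and 72 h and in CTL 48 h, Fgf8 in CTL 72 h and Early 96 h, and Fgfr1 holds 79.7% or more of every receptor bar.

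At the end of each pulse, Fgf8 and Fgf17 were higher and Fgf3, Fgf4 and Fgf15 lower than in untreated gastruloids, while the receptors differed between the pulses. The share of all tested genes called in a direction stands beside each count. In Early 48 h against CTL 48 h, 4 of 10 members were higher (Fgf8, Fgf17, Fgfr2, Fgfr4; 23.0% of all tested genes) and 3 lower (Fgf3, Fgf4, Fgf15; 20.7%). In CTL 72 h against CTL 48 h, 3 were higher (Fgf8, Fgf17, Fgfr1; 31.1%) and 5 lower (Fgf3, Fgf4, Fgf15, Fgfr2, Fgfr4; 30.3%). These comparisons share the CTL libraries of 48 h. CTL 72 h is a day older than those libraries, and the series holds no untreated group of 72 h. Over the later pulse, age and CHIR therefore cannot be told apart.

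At equal age and at equal time from the pulse, 7 or 8 of the 10 genes were called, in comparisons in which a large part of all tested genes was called too. Early 72 h against CTL 72 h had 5 members higher (Fgf3, Fgf4, Fgf15, Fgfr2, Fgfr4; 21.7% of all tested genes) and 3 lower (Fgf8, Fgf17, Fgfr1; 23.2%). Within that comparison Fgf4 was 15.2-fold higher in Early libraries (3.92 ± 0.12, adjusted p = 1.06e-13) and Fgf8 4.30-fold lower (-2.11 ± 0.21, adjusted p = 2.80e-07). Early 48 h against CTL 72 h, the ends of the pulses, had 5 higher (Fgf3, Fgf4, Fgf15, Fgfr2, Fgfr4; 29.5%) and 3 lower (Fgf8, Fgf17, Fgfr1; 31.7%). Of these, Fgf3 (1.08 ± 0.37, adjusted p = 0.0187) was not called without CTL replicate 1 of 72 h (0.89, adjusted p = 0.0815) or Early replicate 3 of 48 h (0.95, adjusted p = 0.0664). One day past the pulses, Early 72 h against CTL 96 h had 3 higher (Fgf4, Fgfr2, Fgfr4; 34.3%) and 5 lower (Fgf3, Fgf8, Fgf17, Fgfr1, Fgfr3; 35.4%). At 96 h, Early against CTL had 1 higher, Fgfr4 (29.5%), and 6 lower, Fgf3, Fgf4, Fgf15, Fgf17, Fgfr1 and Fgfr3 (29.6%). The median log2 fold change of the 10 members at 96 h was -0.77, against -0.01 over all tested genes.

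**Figure D4:**
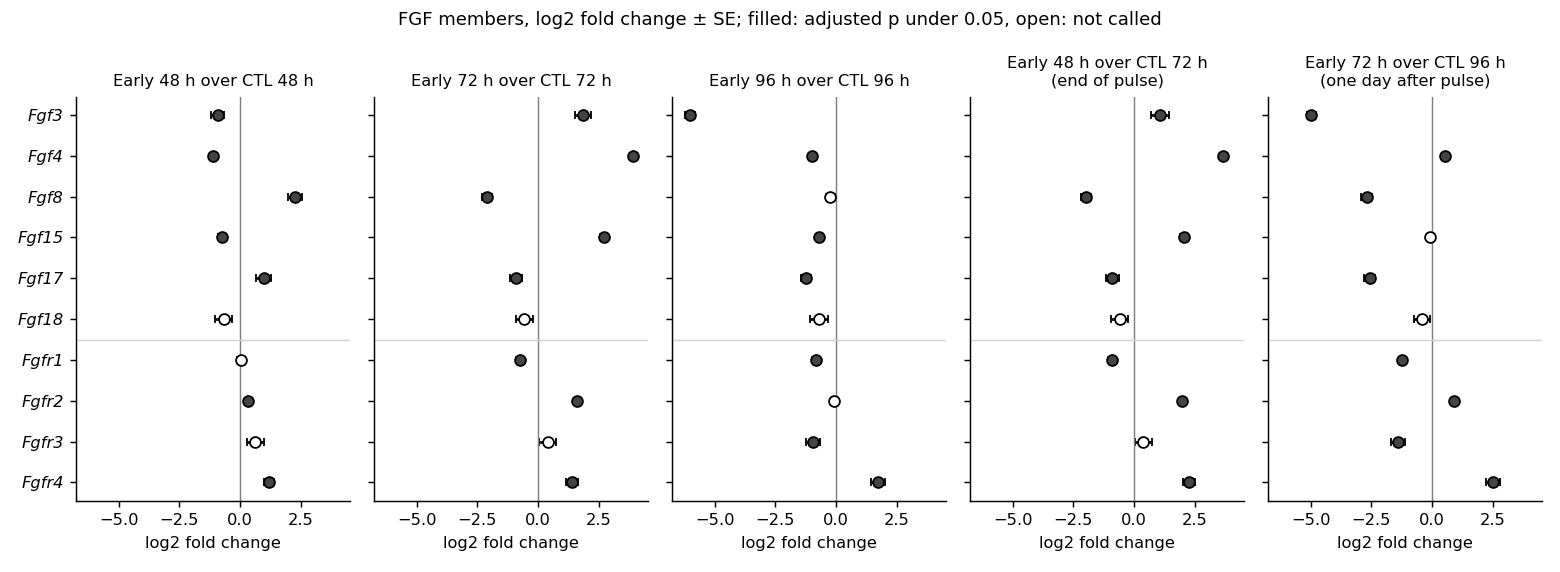
Log2 fold change ± SE (x axis, Early over CTL) of the 6 ligands (above the grey line) and 4 receptors (below it) at 48, 72 and 96 h, at the ends of the pulses and one day after them. Filled points have an adjusted p under 0.05 and open points do not, and the CTL libraries of 72 and 96 h each serve in more than 1 panel. Fgf3 lies farthest left at 96 h (-6.03) and Fgf4 farthest right at 72 h (3.92).

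Over single days, 8 members were higher in CTL 96 h than in CTL 72 h (27.5% of all tested genes), namely those other than Fgf18 and Fgfr4. One was lower, Fgfr4 (27.4%), and the median was 1.21 over the members, against -0.01 over all tested genes. In a fit of these 2 groups alone, 6 members were higher, Fgf8 and Fgfr1 not being called, beside 3515 of 14757 genes. Without any 1 CTL library of 96 h, 7 were higher, beside 4110 to 4620 of all genes. Early 72 h against Early 48 h had 3 higher (Fgf3, Fgf4, Fgf15; 20.7%) and 2 lower (Fgfr2, Fgfr4; 21.9%), shares near those of all tested genes. When 1 of the libraries was left out, 2 to 4 of these 5 calls were made. In a fit of these 2 groups alone 6 members were called, beside 4341 genes higher and 4213 lower of 14861. Without the CTL libraries numbered 3 it was 6 as well, beside 4235 higher and 4113 lower of 16386. On the next day, Early 96 h against Early 72 h had 3 higher (Fgf8, Fgf17, Fgfr1; 17.6%) and 5 lower (Fgf3, Fgf4, Fgf15, Fgfr2, Fgfr4; 17.6%). All 8 were called in the same direction in CTL 72 h against CTL 48 h, a comparison that shares no library with it. There, 31.1% of all tested genes were higher and 30.3% lower. The share of all tested genes called alike in both comparisons was not computed, so this count cannot be set against it. Without Early replicate 2 of 96 h, 5 members were called in that Early step. In the test of the difference itself, the step after the pulse was lower in the Early than in the CTL arm for 6 members (21.7%) and higher for 0 (22.8%). Those 6 were Fgf3, Fgf4, Fgf15, Fgf17, Fgfr2 and Fgfr3. Beside them Fgfr1 had -0.30 ± 0.21 (adjusted p = 0.261) and was called without CTL replicate 3 of 96 h (-0.53, adjusted p = 1.51e-06), and Fgf8 had -0.72 ± 0.30 (adjusted p = 0.0550), or -0.39 (adjusted p = 0.107) without that library. Fgf8 was called without CTL replicate 1 of 96 h (-0.80, adjusted p = 0.0433), CTL replicate 2 of 96 h (-0.91, adjusted p = 0.00888) or Early replicate 2 of 48 h (-0.82, adjusted p = 0.0462), and with no filter on low counts (-0.71, adjusted p = 4.39e-07).

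Fgf3, Fgf4 and Fgf15 lie side by side on mouse chromosome 7 in the coordinates of the deposited FPKM table (mm10): Fgf3 at chr7:144838083-144844436, Fgf4 at chr7:144847367-144865243 and Fgf15 at chr7:144896531-144900953, 2930 and 31287 bases apart and all on the plus strand. The promoters of the adjacent Fgf3 and Fgf4 are shown because the levels of these genes parted at 96 h. RefSeq's table (GRCm38.p6) gave windows of 250 bases before to 50 after the start for both, Fgf3 at chr7:144838362-144838661 and Fgf4 at chr7:144861136-144861435, plus strand. Both windows lie inside the annotated spans of their genes, which start further upstream. Capitals mark the GC box GGGCGG, the CCAAT box read as ATTGG, and TATATA.
Fgf3: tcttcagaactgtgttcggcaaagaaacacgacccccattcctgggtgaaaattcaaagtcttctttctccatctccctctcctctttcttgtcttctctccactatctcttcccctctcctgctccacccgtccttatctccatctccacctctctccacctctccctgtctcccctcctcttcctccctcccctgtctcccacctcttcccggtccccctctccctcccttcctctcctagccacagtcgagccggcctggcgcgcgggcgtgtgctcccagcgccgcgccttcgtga
Fgf4: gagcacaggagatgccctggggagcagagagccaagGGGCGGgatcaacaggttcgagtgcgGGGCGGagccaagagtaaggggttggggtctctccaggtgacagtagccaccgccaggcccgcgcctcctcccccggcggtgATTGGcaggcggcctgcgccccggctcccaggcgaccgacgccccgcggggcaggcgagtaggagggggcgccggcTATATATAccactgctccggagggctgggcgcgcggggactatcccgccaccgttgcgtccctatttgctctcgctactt
The letters searched on both strands were GGGCGG (35.7% of the 32851 promoter windows hold it), ATTGG (37.4%), TATATA (5.67%), the E-box CAGGTG (20.2%), CCGGAAG of ETS factors (8.86%), ACAAAG of SOX factors (18.7%), ATTTGCAT of POU factors (1.74%), GGTGTGA of T-box factors (3.98%), and CTTTGAT (3.73%) and CTTTGTT (5.85%) of TCF/LEF factors. The Fgf4 window held GGGCGG at -214 and -188 from the start, ATTGG at -106, CAGGTG at -154 and TATATA at -30 and -28, the last 2 overlapping each other. None of these letters was in the Fgf3 window. A match is a description and not a site.

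The genes that flank these 3 on chromosome 7 had narrower ranges of level between groups. Ccnd1, the cell cycle regulator cyclin D1, had group means between 282 CPM in CTL 48 h and 363 CPM in Early 72 h. LTO1, a ribosome biogenesis factor that lies before it, had 10.8 to 18.3 CPM, with its highest mean in CTL 96 h. Ano1, a calcium-activated chloride channel gene on the other side of Fgf3, was at 0.493 to 2.87 CPM and was also highest in CTL 96 h. At 96 h, Early against CTL was -1.68 ± 0.23 for Ano1 (adjusted p = 6.60e-06), -0.50 ± 0.10 for LTO1 (adjusted p = 2.23e-04) and -0.04 ± 0.08 for Ccnd1 (adjusted p = 0.686), beside -6.03 for Fgf3, -0.99 ± 0.10 for Fgf4 (adjusted p = 1.17e-07) and -0.70 ± 0.14 for Fgf15 (adjusted p = 2.77e-04). Over the later pulse, CTL 72 h against CTL 48 h was 0.91 ± 0.31 for Ano1 (adjusted p = 0.0158), -0.02 ± 0.10 for LTO1 (adjusted p = 0.896) and 0.02 ± 0.08 for Ccnd1 (adjusted p = 0.803). The difference between the steps after the pulse, early minus control, was -1.58 ± 0.35 for Ano1 (adjusted p = 0.00121). It was -0.67 ± 0.14 for LTO1 (adjusted p = 7.49e-04) and 0.07 ± 0.11 for Ccnd1 (adjusted p = 0.608).

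**Figure D5:**
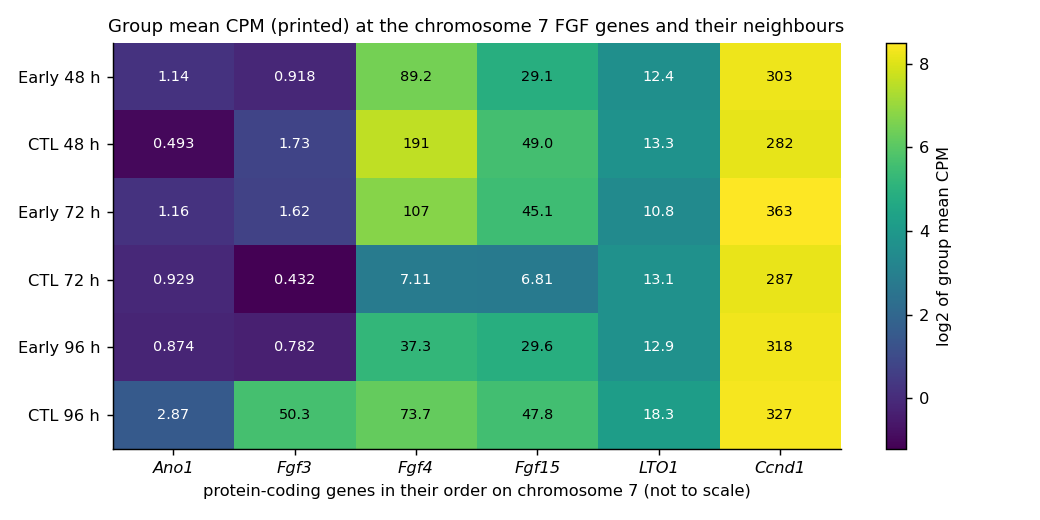
Group mean CPM (printed, with log2 of the mean as colour) of the protein-coding genes from Ano1 to Ccnd1 (x axis, in their order on chromosome 7, not to scale) in the 6 groups (y axis). Fgf4 and Fgf15 are both at their lowest in CTL 72 h, at 7.11 and 6.81 CPM, Fgf3 is above 2 CPM in CTL 96 h alone, at 50.3 CPM, and Ccnd1 stays between 282 and 363 CPM.

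Across the 18 libraries, levels in log2 CPM correlated most closely between Fgf8 and Fgf17 (Pearson r = 0.916) and between Fgf4 and Fgf15 (r = 0.913), and were most opposed between Fgfr1 and Fgfr4 (r = -0.837). These are descriptions over 18 points that share 6 groups of 3, with no test. Genes like each member were sought among tested genes with a mean of at least 5 CPM in any group. Symbols that start with Gm and a digit or end in Rik were left out. The genes most like Fgf4 were Mycn (r = 0.980), a proto-oncogene of proliferating embryonic cells, Sall1 (r = 0.966), a zinc finger factor of embryonic stem cells, and Parp12 (r = 0.960). Fgf4 itself was the third most like Fgf15, after Ifitm3 (r = 0.957) and Rnd3 (r = 0.921). Among those most like Fgf8 were Pigu (r = 0.973) and Cadm4 (r = 0.971), those most like Fgf17 were Stard3 (r = 0.971), Zbtb10 (r = 0.966) and Pofut1 (r = 0.963), and those most like Fgf3 were Sv2b (r = 0.972), Arhgap28 (r = 0.970) and the imprinted RNA H19 (r = 0.969). For the receptors they included Bmt2 (r = 0.975) and Elovl1 (r = 0.972) for Fgfr1, Tle4 (r = 0.971), Zfp710 (r = 0.962) and the pluripotency factor Sox2 (r = 0.952) for Fgfr2, Ckap4 (r = 0.891), Tfap2c (r = 0.888) and Epha4 (r = 0.884) for Fgfr3, and Arhgap45 (r = 0.978), Pla2g5 (r = 0.974) and Mif4gd (r = 0.973) for Fgfr4. None of the genes searched exceeded r = 0.743 with Fgf18.

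Of 16 further FGF genes, 8 were tested. Fgf5, a ligand of the primed epiblast, averaged 40.3, 87.6 and 152 CPM in Early 48, 72 and 96 h and 128, 74.5 and 3.06 CPM in CTL 48, 72 and 96 h. The arms thus parted in opposite directions with age, and at 96 h Fgf5 was higher in Early than in CTL libraries (5.55 ± 0.33, adjusted p = 1.17e-10), the reverse of Fgf3. Per kilobase of exon, Fgf5 averaged 60.65 CPM in Early 96 h and 1.22 CPM in CTL 96 h, beside 45.1 and 53.25 CPM for Fgf8. At 48 h it averaged 16.1 CPM in Early and 51.2 CPM in CTL libraries, beside 27.9 and 59.8 CPM for Fgf4. In Early 72 h it stood at 35.0 ± 1.33 CPM, beside 33.5 ± 0.491 CPM for Fgf4 (mean ± SD). In CTL 72 h it stood at 29.8 ± 13.4 CPM, beside 35.1 ± 2.95 CPM for Fgf8. Fgf11, an intracellular FGF homologous factor, was also higher in Early 96 h than in CTL 96 h (2.2 ± 0.17, adjusted p = 3.87e-09), among 4 higher and 4 lower of the 8, beside 29.5% and 29.6% of all tested genes. Without CTL replicate 3 of 96 h the values were 5.21 for Fgf5 and 2.21 for Fgf11.

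FGFs bind co-receptors and matrix proteins, and sugar chains whose enzymes were read here as transcripts. Of 15 tested co-receptors and matrix partners, 1 was higher and 11 lower in Early 96 h against CTL 96 h (median -0.82, against -0.01 over all tested genes), beside 29.5% higher and 29.6% lower of all tested genes, and 9 were lower without CTL replicate 3 of 96 h. Gpc3, a heparan sulphate proteoglycan, averaged 45.2 CPM in Early 96 h and 253 CPM in CTL 96 h (-2.49 ± 0.09, adjusted p = 8.03e-14), and its relative Gpc6 7.35 and 39.1 CPM (-2.41 ± 0.16, adjusted p = 3.31e-10). Of 12 heparan sulphate enzymes, 1 was higher and 8 lower in the same comparison (median -0.39). Among the lower were the chain polymerase gene Ext1 (-0.76 ± 0.06, adjusted p = 5.38e-09) and the sulphotransferase gene Ndst1 (-1.13 ± 0.10, adjusted p = 1.34e-08). Without CTL replicate 3 of 96 h the counts were equal (median -0.44), but the 1 higher gene was a different one. Over the step to CTL 96 h from CTL 72 h, 9 of the 15 partners rose and 1 fell, and 9 of the 12 enzymes rose and 1 fell, beside 27.5% and 27.4% of all tested genes. Without CTL replicate 3 of 96 h, 10 partners and 8 enzymes rose. During the later pulse, Hs6st2, a heparan sulphate 6-O-sulphotransferase, was higher in CTL 72 h than in CTL 48 h (2.69 ± 0.09, adjusted p = 2.91e-14), and it was higher in Early 48 h than in CTL 48 h as well (2.26 ± 0.09, adjusted p = 6.97e-13). Sdc4, a syndecan, ran the other way in CTL 72 h against CTL 48 h (-2.13 ± 0.09, adjusted p = 6.67e-13).

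Of 17 genes that carry the signal from the receptor to ERK, 1 was higher and 11 were lower in CTL 72 h than in CTL 48 h (median -0.27, against 0.01 over all tested genes), beside 31.1% higher and 30.3% lower of all tested genes. Early 48 h against CTL 48 h had 2 higher and 5 lower (median -0.03), beside 23.0% and 20.7%. Gab1, a docking protein of the receptor complex, averaged 420, 308 and 154 CPM in Early 48, 72 and 96 h and 351, 89.7 and 51.9 CPM in CTL 48, 72 and 96 h. At 72 h it was higher in Early than in CTL libraries by 1.78 ± 0.06 (adjusted p = 2.48e-13). Ptpn11, a phosphatase of the receptor complex, was lower in Early 72 h than in CTL 72 h (-0.32 ± 0.04, adjusted p = 4.64e-06).

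Of 14 feedback and target genes of FGF signalling, 3 were higher and 8 lower in Early 96 h than in CTL 96 h (median -0.53, against -0.01), counts that were the same without CTL replicate 3 of 96 h and stand beside 29.5% and 29.6% of all tested genes. Spry4, an inhibitor induced by FGF, averaged 33.3 CPM in Early 96 h and 112 CPM in CTL 96 h (-1.75 ± 0.09, adjusted p = 7.59e-12). Dusp4, an ERK phosphatase, averaged 51.2 CPM in Early 96 h and 158.5 CPM in CTL 96 h (-1.63 ± 0.10, adjusted p = 1.80e-10). Etv5, an ETS factor and FGF target, went against them with 382 CPM in Early 96 h and 202 CPM in CTL 96 h (0.92 ± 0.04, adjusted p = 3.96e-13). At 48 h, 6 were higher and 4 lower in Early than in CTL libraries (23.0% and 20.7% of all tested genes), with Il17rd, a membrane antagonist of FGF signalling, at 1.15 ± 0.08 (adjusted p = 1.29e-09) and Spred3 at -1.45 ± 0.11 (adjusted p = 8.92e-09). At 72 h Early against CTL had 5 higher and 4 lower (21.7% and 23.2%), the immediate early gene Egr1 averaging 5.72 CPM in Early and 23.8 CPM in CTL libraries (-2.06 ± 0.21, adjusted p = 3.49e-07).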

How the data were processed

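Gastruloids of a condition were pooled, frozen and extracted, and stranded mRNA libraries were made, per the labels' protocols, which name 2 preparation codes without assigning libraries to them. Reads were trimmed with cutadapt 4.0, aligned with STAR 2.7.8a to mm10 and passed to Cufflinks 2.2.1, per the submitters' processing notes, and other settings were not found in these notes. The authors deposited a table of raw counts of 55385 genes and one of FPKM values (fragments scaled for transcript length and depth) of 55468 genes. All 18 sample columns matched the sample descriptions, and no blank or summary row entered the fit.

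Counts were filtered with filterByExpr, scaled by TMM and modelled in a single fit of the 18 libraries with group as the factor (edgeR 4.0.16 quasi-likelihood, limma 3.58.1, R 4.3.3). Each of 10 contrasts was tested 2-sided with Benjamini-Hochberg adjustment over 16041 genes. The SE is the log2 fold change divided by the square root of F. Exon lengths came from GENCODE M21. Likeness is Pearson's r over all libraries, on log2 CPM (prior count 2). Correlations of same-numbered replicates' deviations were not over 0.1 in every pair of any 2 groups, so the numbers were not taken to pair libraries. The fit was tested on simulated data.

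The 10 genes, the 5 pathway lists of 75 names and the markers were chosen with earlier results of these data known. Of the lists, at most 3 called genes per contrast of lowest adjusted p, with at least 5 CPM and separated libraries, could be named, and the text gives a part of them. Some genes that these rules select are not reported here. Alternatives were other size factors, filters, tests, a replicate block, FPKM values with a pseudocount of 1 or 0.1, and libraries left out. Leaving out the CTL libraries numbered 3 followed earlier results, and a bias-adjusted quasi-likelihood fit was added after seeing the data.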

Additional observations from a re-analysis of the deposited data

Results flagged for a closer look

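The step over the day after the pulse (Early 72 h against Early 48 h, set against CTL 96 h against CTL 72 h) differed between the arms for 6 of the 10 FGF genes by edgeR's quasi-likelihood interaction test. All 6 were lower, beside 21.7% of all tested genes called lower and 22.8% called higher. Early minus control, the log2 difference was -6.06 for Fgf3, -3.12 for Fgf4, -2.16 for Fgf15 and -1.69 for Fgf17 among the ligands. Among the receptors it was -1.08 for Fgfr2 and -1.80 for Fgfr3. The Early step is set on gastruloids one day younger than those of the CTL step, so age and pulse timing cannot be told apart here. Levels of Fgf3, Fgf4, Fgf15 and Fgfr3 in CTL replicate 3 of 96 h were below those of both other CTL libraries of that age, and that of Fgf17 was above. Without that library the differences were -6.19 for Fgf3, -3.24 for Fgf4, -2.30 for Fgf15, -1.31 for Fgf17, -1.06 for Fgfr2 and -2.0 for Fgfr3, and each was called.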

How the results depend on the processing

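The 10 counts of called members were the same within 1.5 times under DESeq2 size factors, the DESeq2 Wald test, both count filters, fits of the groups compared, the bias-adjusted fit and the replicate block, which changed no call. On FPKM values 6 members passed the filter and 9 could be tested without one, since Fgfr2 is listed at 0. There, 4 of 6 filtered members and 4 of 9 unfiltered were called in Early 48 h against CTL 48 h on log2(FPKM + 1). Of all genes, 2182 were higher and 3036 lower of 11904 filtered, and 2308 and 3221 of 26380 unfiltered. In Early 48 h against CTL 72 h, 5 of 6 were called on log2(FPKM + 1), beside 2247 higher and 5211 lower of 11904. In Early 72 h against CTL 96 h, 5 of 6 were called with either pseudocount, beside 3706 higher and 4562 lower with 0.1 and 3715 and 4599 with 1. For CTL 96 h against CTL 72 h, 5 of 6 were called with a pseudocount of 0.1 and 5 of 9 on all genes. Beside them, 3187 genes were higher and 3428 lower of 11904, and 3975 and 3493 of 26380. The Early step of 72 h over 48 h had 3 of 6 with 0.1, 2 of 6 with 1 and 3 of 9 on all genes. Of all genes, 3491, 3412 and 3421 were higher there and 1397, 1442 and 1517 lower. The Early step of 96 h over 72 h had 5 of 6, 5 of 6 and 4 of 9. Of all genes, 2972, 3018 and 2779 were higher there and 1333, 1391 and 1595 lower. Without 1 library, these Early steps had 2 to 4 and 5 to 7 calls.

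Signs turned for differences that were not called. Leaving out 1 library gave -0.00997 to 0.0455 for Fgfr1 and -0.42 to 0.10 for Fgf8 in Early against CTL at 48 and 96 h, and -0.23 to 0.00533 for Fgf15 in Early 72 h against CTL 96 h. In CTL 72 h against CTL 48 h the ranges were -0.31 to 0.12 for Fgf18 and -0.0892 to 0.51 for Fgfr3, and in CTL 96 h against CTL 72 h -0.36 to 0.0835 for Fgf18. In Early 72 h against Early 48 h they were -0.23 to 0.0881 for Fgf8, -0.16 to 0.0860 for Fgf17, -0.13 to 0.39 for Fgf18 and -0.12 to 0.18 for Fgfr3. For the difference of steps the range was -0.0446 to 0.55 for Fgf18. On FPKM values Fgfr1 in Early against CTL at 48 h was -0.0314 (pseudocount 0.1) or -0.03025 (1). Early 72 h against Early 48 h was 0.0203 (0.1) or 0.0167 (1) for Fgf8 and 0.144 (0.1) or 0.0883 (1) for Fgf17, the filter making no difference. On all genes Fgf18 was 0.0147 in CTL 72 h against CTL 48 h, and the difference of steps was -0.19 for Fgfr4. Fgf17 in Early 72 h against Early 48 h was 0.00404 with no filter and 8.575e-04 with the replicate block. Without the CTL libraries numbered 3, Fgfr1 was -0.0195 and Fgf8 0.10 in Early against CTL at 48 and 96 h, and Fgfr3 was -0.0355 in CTL 72 h against CTL 48 h. The cause was not tested.

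Over all members and alternatives, 1547 values kept direction and call, 56 lost the call, 14 gained it and 36 changed sign. On FPKM values 42 fold changes of called members moved by over 1.5 times, 39 of them with a pseudocount of 1, and none did under the other settings. With that pseudocount Fgf3 was -3.86 in Early 96 h against CTL 96 h and 4.0 in CTL 96 h against CTL 72 h, and Fgfr4, on all genes, 0.26 in Early 96 h against CTL 96 h. Of 880 counts over the 5 lists, 26 moved by over 1.5 times. Depth limits Fgf18 and, in most groups, Fgf3, Fgfr3 and Fgfr4, which have few counts, and no batch could be modelled.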
